A study of Mus musculus with 8 samples.

Results

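Transcripts of 10 genes that mark resident macrophages of the heart or encode the complement protein C1q were followed in mouse left ventricles under pressure overload, with and without Lin28a in the heart. The genes are Lyve1, Folr2, Cd163, Mrc1, F13a1, Cbr2, Csf1r, C1qa, C1qb and C1qc. They were taken by name from the 13439 genes listed, and all 10 were listed and passed the filter of at least 1 CPM (reads of a gene scaled to a common library total) in at least 2 libraries. Mice of genotype Lin28afl/fl (called floxed below) were littermates of mice of genotype Lin28aCko (called cKO), whose Lin28 knockout is described as cardiac-specific. Within each genotype, some hearts were sham-operated and others underwent transverse aortic constriction (TAC), a narrowing of the aorta that raises the load on the left ventricle. TAC hearts were taken at day 5, no day is given for the sham hearts, and each of the 4 groups had 2 libraries of ventricular RNA. No source used here gives the Cre driver, the strain, the age or the sex of the mice, or says that the 2 libraries of a group came from separate animals. The p-values therefore measure how far these libraries spread, which may be technical in part. The 2 cKO sham libraries differed in sex-linked transcripts, as given below, so they did not come from the same animal. The labels also do not say which cells of the heart lose Lin28a in cKO mice.

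Macrophages that settle in the heart live among the muscle fibres, clear dying cells and debris, and depend on signalling through the CSF1 receptor, encoded by Csf1r. Surface proteins such as the hyaluronan receptor Lyve1, the folate receptor Folr2, the haemoglobin scavenger receptor Cd163 and the mannose receptor Mrc1 (CD206) are widely used to recognise resident cells, whereas recruited monocytes carry Ccr2. C1q is the recognition protein of the classical complement pathway. It is assembled from A, B and C chains (C1qa, C1qb, C1qc), is made mainly by macrophages in most tissues, and starts the pathway through its partner proteases C1r and C1s.

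The 3 C1q genes lie side by side on the minus strand of chromosome 4 (mm10, GENCODE M21), with C1qb at 136880129 to 136886187, C1qc at 136889804 to 136893065 and C1qa at 136895917 to 136898803. The cluster spans 18.7 kb, with 3616 bases between C1qb and C1qc and 2851 bases between C1qc and C1qa. Of the 10 genes, 7 had a promoter entry in RefSeq (GRCm38.p6), and C1qa, Lyve1 and Csf1r had none. The sequences upstream of C1qb and C1qc are shown because these neighbours moved together in the libraries. Those of Mrc1 and Cd163 are shown because these 2 endocytic receptors responded to TAC by different amounts, a choice made after their values were seen. Each reads 5′ to 3′ on the strand of the gene, ends before the annotated transcript, and has in capitals every match, on either strand, to GAGGAA, the purine-rich core bound by the macrophage factor PU.1, or to TGCTGA, a core bound by MAF proteins.
C1qb, chr4:136886201-136886450, minus strand: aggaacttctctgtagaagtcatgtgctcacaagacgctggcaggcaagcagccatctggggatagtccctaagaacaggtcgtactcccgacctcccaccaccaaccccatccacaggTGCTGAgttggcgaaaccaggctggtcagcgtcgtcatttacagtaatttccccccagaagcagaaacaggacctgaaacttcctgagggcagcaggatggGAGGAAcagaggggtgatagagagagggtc
C1qc, chr4:136893066-136893164, minus strand: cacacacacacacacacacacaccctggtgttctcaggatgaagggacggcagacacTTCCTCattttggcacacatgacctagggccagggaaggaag
Mrc1, chr2:14229164-14229391, plus strand: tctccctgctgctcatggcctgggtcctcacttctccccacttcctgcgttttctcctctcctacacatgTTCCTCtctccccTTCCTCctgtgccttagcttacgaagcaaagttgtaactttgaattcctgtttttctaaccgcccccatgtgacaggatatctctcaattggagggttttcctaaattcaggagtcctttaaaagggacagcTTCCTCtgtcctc
Cd163, chr6:124304401-124304635, plus strand: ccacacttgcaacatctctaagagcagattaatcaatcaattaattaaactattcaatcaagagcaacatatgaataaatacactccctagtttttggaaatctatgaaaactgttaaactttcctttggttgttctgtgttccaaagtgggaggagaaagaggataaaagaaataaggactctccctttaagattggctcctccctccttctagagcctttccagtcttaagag

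Mrc1 held 3 matches to the PU.1 core, C1qb 1 and C1qc 1, and Cd163 held none. C1qb also held 1 match to the MAF core. Over all 32841 mouse promoter windows of 250 bases, 23.3% held GAGGAA, 16.1% held TGCTGA and 6.75% held the AP-1 sequence TGANTCA, both strands counted. None of the 4 sequences held TGANTCA. A match is a description of these letters and not evidence of binding.

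The remaining genes are spread over the genome (mm10, GENCODE M21). Lyve1 lies on chromosome 7 at 110850607 to 110863239 and Folr2 on the same chromosome at 101839988 to 101857194, both on the minus strand. Cd163 lies on chromosome 6 at 124304656 to 124330527 and Mrc1 on chromosome 2 at 14229392 to 14332057, both on the plus strand. F13a1 lies on chromosome 13 at 36867178 to 37050244 and Cbr2 on chromosome 11 at 120729489 to 120732114, both on the minus strand. Csf1r lies on the plus strand of chromosome 18 at 61100598 to 61132149.  Exons of Csf1r overlap the opposite-strand gene Hmgxb3, those of Folr2 the antisense gene Gm10602 and those of F13a1 the antisense gene Gm30489. No source used here gives the strand setting of the counting, so reads in these overlaps cannot be assigned to 1 gene.

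Library totals were 10315902 to 21871570 reads, and each of the 10 genes had at least 157 reads in every library. Lin28a was not analysed here. Cardiomyocyte markers were abundant throughout, with a summed level of 60068 to 97762 CPM for 8 genes, lowest in the 2 floxed TAC libraries. Atrial muscle markers (Myl7, Myl4 and Sln) summed to between 139 CPM (cKO sham 2) and 279 CPM (floxed sham 2) in 3 libraries, the third being cKO TAC 2 with 141 CPM, and to between 6.27 and 17.1 CPM elsewhere. The library cKO sham 2 also stood apart in sex-linked transcripts, with Xist at 44.3 CPM and Ddx3y at 0 reads. The others had Xist at up to 0.173 CPM and Ddx3y at 32.3 CPM (floxed TAC 2) to 63.2 CPM (cKO sham 1). Counts of calls are given with and without these libraries, and single values where they moved most, and the part of these differences in the results was not tested.

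In floxed hearts, 9 of the 10 transcripts rose after TAC and 1, Lyve1, did not pass the test. The C1q chains, Csf1r, Mrc1 and F13a1 reached 2.93 to 4.10 times their sham means, while Cbr2, Cd163 and Folr2 reached 1.76 to 2.23 times. Changes were common in this comparison. Of all 13120 genes tested with limma, 42.4% were called at an adjusted p under 0.05, 27.9% as higher and 14.5% as lower, and the count of 9 is read against that background. The median log2 difference was 1.62 over the 10 genes and 0.14 over all genes tested. RNA of whole ventricle was measured, so a change in the number of cells of a type and a change in RNA per cell cannot be told apart.

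The C1q chains were among the more abundant of the 10 transcripts. C1qa, the A chain, was at 63.3 and 66.1 CPM in the floxed sham libraries and at 236 and 238 CPM in the floxed TAC libraries. C1qb, the B chain, was at 56.2 and 60.9 CPM in sham and at 241 and 239 CPM in TAC. C1qc, the C chain, was at 64.7 and 75.8 CPM in sham and at 225 and 230 CPM in TAC. For each chain both TAC libraries lay far above both sham libraries, and the 2 TAC libraries lay close to each other. On the log2(CPM + 1) scale C1qa rose by 1.86 ± 0.16 (standard error, limma adjusted p = 3.61e-05), C1qb by 2.02 ± 0.14 (adjusted p = 1.91e-05) and C1qc by 1.69 ± 0.16 (adjusted p = 6.09e-05).

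Csf1r, the receptor on which most macrophages depend for survival, was at 59.9 and 56.6 CPM in floxed sham and at 185 and 197 CPM in floxed TAC. It rose by 1.70 ± 0.15 (adjusted p = 3.61e-05), with no overlap between the groups. Mrc1, which takes up mannosylated glycoproteins, went from 28.7 and 36.9 CPM to 115 and 122 CPM. This was the largest log2 difference among the 6 genes for surface and secreted or cytosolic proteins, at 1.83 ± 0.17 (adjusted p = 5.80e-05). F13a1, the A subunit of coagulation factor XIII, a transglutaminase that cross-links fibrin, was at 56.2 and 72.1 CPM in sham and at 179 and 197 CPM in TAC. Its rise was 1.55 ± 0.17 (adjusted p = 0.000117), and the TAC libraries again lay above both sham libraries.

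The smaller changes were in a carbonyl reductase and in the scavenger and folate receptors. Cbr2, a carbonyl reductase, was at 26.9 and 25.3 CPM in floxed sham and at 51.0 and 65.4 CPM in floxed TAC, a rise of 1.12 ± 0.15 (adjusted p = 0.000316). Cd163, which takes up haemoglobin bound to haptoglobin, was at 18.6 and 17.3 CPM in sham and at 33.3 and 36.3 CPM in TAC, a rise of 0.92 ± 0.21 (adjusted p = 0.00582). Folr2, the folate receptor of macrophages, was at 14.5 and 14.2 CPM in sham and at 23.4 and 27.0 CPM in TAC, a rise of 0.77 ± 0.24 (adjusted p = 0.0261). All 3 had both TAC libraries above both sham libraries. The call for Folr2 was lost under median-ratio scaling (adjusted p = 0.0609) and without any 1 of the floxed libraries, with adjusted p of 0.0994 without sham 1, 0.105 without sham 2, 0.0661 without TAC 1 and 0.141 without TAC 2.

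Lyve1, a hyaluronan receptor of resident macrophages and of lymphatic endothelium, was at 21.5 and 29.0 CPM in floxed sham and at 22.8 and 33.2 CPM in floxed TAC. The groups overlapped, and the log2 difference of 0.14 ± 0.29 had a 95% interval from -0.52 to 0.79 (adjusted p = 0.742). Markers of lymphatic endothelium were listed for 5 of 6 genes (Prox1, Pdpn, Flt4, Reln and Mmrn1) and summed to 95.6 and 103 CPM in floxed sham and to 110 and 105 CPM in floxed TAC. Within that sum, Prox1, the transcription factor of lymphatic identity that cardiomyocytes also express, was at 40.4 and 44.3 CPM in sham and at 26.6 and 16.3 CPM in TAC. Pdpn went from 4.93 and 4.56 CPM to 21.6 and 26.3 CPM. The part of lymphatic endothelium in the Lyve1 level was not tested. Groups did not overlap in this direction for 9 of the 10 genes, against 46.7% of all genes tested.

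**Figure D1:**
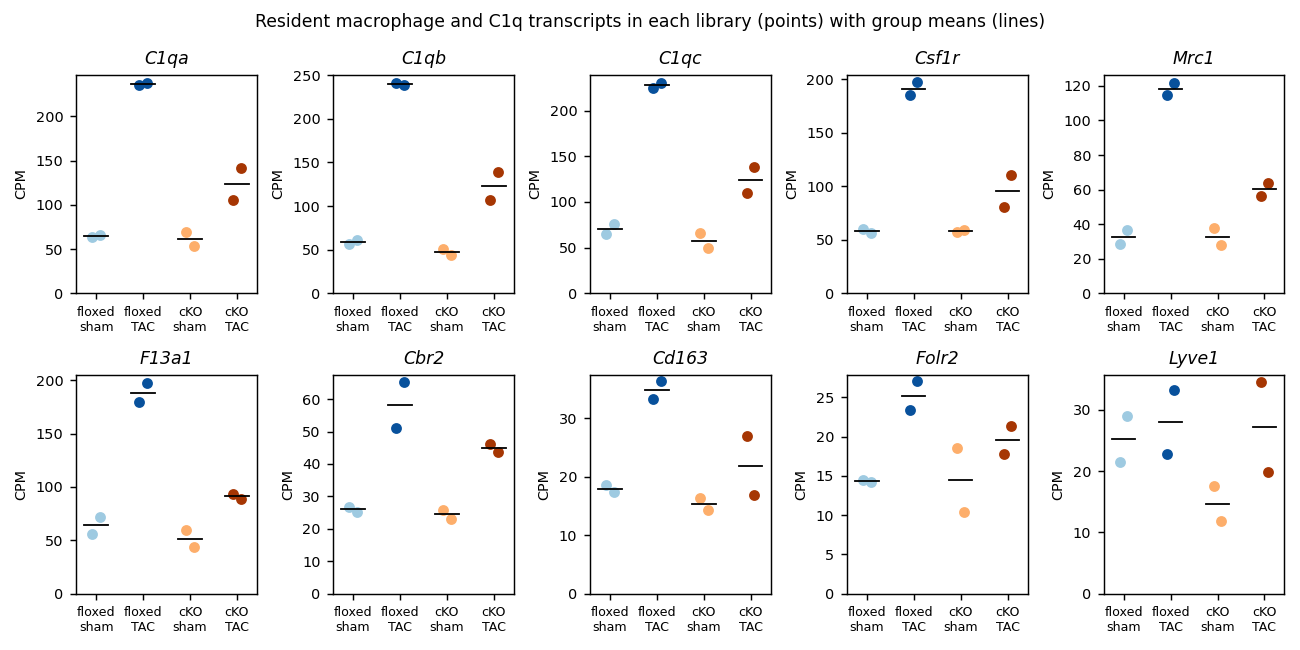
Deposited CPM of each of the 10 genes (y axis, CPM, from 0) in the 8 libraries, by group on the x axis, with points for libraries and a line at the group mean. For 9 genes both floxed TAC libraries lay above both floxed sham libraries, and for Lyve1 the groups overlapped.

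In cKO hearts, 7 of the 10 transcripts rose after TAC: the 3 C1q chains, Csf1r, Mrc1, F13a1 and Cbr2. Group means of these 7 in TAC were 1.64 to 2.57 times those in sham, and C1qb had the largest ratio. Lyve1, Cd163 and Folr2 did not pass the test. In this comparison 2.53% of all genes tested were called, 2.09% as higher and 0.442% as lower, and the median log2 difference was 0.84 over the 10 genes and 0.02 over all genes.

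C1qa was at 69.2 and 53.8 CPM in the cKO sham libraries and at 106 and 142 CPM in the cKO TAC libraries, a rise of 0.99 ± 0.16 (adjusted p = 0.0140). C1qb was at 51.4 and 44.4 CPM in sham and at 107 and 140 CPM in TAC, a rise of 1.33 ± 0.14 (adjusted p = 0.00310). C1qc was at 65.7 and 49.9 CPM in sham and at 109 and 138 CPM in TAC, a rise of 1.09 ± 0.16 (adjusted p = 0.00991). Each chain was higher in cKO TAC 2 than in cKO TAC 1, and both lay above both sham libraries. Csf1r was at 57.1 and 59.3 CPM in sham and at 80.3 and 110 CPM in TAC, a rise of 0.68 ± 0.15 (adjusted p = 0.0434). The receptor thus had a wider spread in cKO TAC than in any other group, with an SD of 21.2 CPM.

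Mrc1 was at 37.9 and 27.8 CPM in cKO sham and at 56.2 and 64.0 CPM in cKO TAC, a rise of 0.87 ± 0.17 (adjusted p = 0.0349). F13a1 was at 59.9 and 43.5 CPM in sham and at 93.7 and 89.0 CPM in TAC, a rise of 0.83 ± 0.17 (adjusted p = 0.0370). Cbr2 was at 25.9 and 23.0 CPM in sham and at 46.1 and 43.7 CPM in TAC, a rise of 0.85 ± 0.15 (adjusted p = 0.0199). In these 3 the TAC libraries did not overlap with sham. Cd163 was at 16.4 and 14.3 CPM in sham and at 27.0 and 16.8 CPM in TAC (0.46 ± 0.21, adjusted p = 0.315). Folr2 was at 18.6 and 10.4 CPM in sham and at 17.8 and 21.3 CPM in TAC (0.45 ± 0.24, adjusted p = 0.389), and its groups overlapped. Lyve1 was at 17.5 and 11.8 CPM in sham and at 34.6 and 19.9 CPM in TAC. Both TAC libraries of Lyve1 exceeded both sham libraries, but the log2 difference of 0.82 ± 0.29 did not pass (adjusted p = 0.197, unadjusted p = 0.0191). For 9 of the 10 genes the cKO groups did not overlap, against 23% of all genes tested.

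Calls in cKO hearts depended on which libraries entered the fit. Without cKO sham 2, the library that stood apart in sex-linked and atrial transcripts, only C1qb was called, and the share called over all genes was 0.541% in place of 2.53%. Without cKO TAC 2 the 3 C1q chains were called, against 1.65% of all genes. The number called was 6 without cKO TAC 1 (4.69% of all genes), 5 without cKO sham 1 (1.22%), 5 without floxed sham 1 (1.43%) or floxed sham 2 (1.45%), and 4 without floxed TAC 1 (1.43%) or floxed TAC 2 (1.39%). With the 3 libraries of high atrial transcripts left out, 1 library remained in each of 3 groups and limma called none of the 10 and 0.404% of all genes. C1qb then had a log2 difference of 1.04 (adjusted p = 0.0702), C1qc of 0.73 (0.152), C1qa of 0.61 (0.204), Mrc1 of 0.56 (0.241) and Csf1r of 0.49 (0.290). F13a1 was at 0.64 (adjusted p = 0.204) and Cbr2 at 0.81 (0.208) in that fit. Folr2, at 0.45 with all libraries, was at 0.06 without cKO sham 2 and at -0.06 without the 3 libraries. Csf1r without cKO TAC 2 was at 0.46 (adjusted p = 0.126), and Cd163 without that library was at 0.78 (0.0722).

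Between genotypes in sham hearts none of the 10 was called, as with edgeR and DESeq2 on the recovered reads. In limma 1 of the 10 had an unadjusted p under 0.05, as did 1013 of all 13120 genes tested. Of all genes tested 0.0534% were called, 0.0457% as higher and 0.00762% as lower in cKO. The gene with the low unadjusted p was Lyve1, whose sham means were 25.2 ± 5.31 CPM in floxed and 14.7 ± 4.05 CPM in cKO hearts (SD, n = 2 each). Its log2 difference, cKO minus floxed, was -0.75 ± 0.29, with a 95% interval from -1.41 to -0.10 (adjusted p = 0.608 and unadjusted p = 0.0290 in limma). The estimate was -0.49 without cKO sham 2, -0.54 without floxed sham 2 and -0.28 without the 3 libraries of high atrial transcripts. Over all 17 alternatives it ran from -1.02 to -0.28, so it moved in both directions. Csf1r and Mrc1 had differences of -0.00 each, with 95% intervals from -0.33 to 0.32 for Csf1r and from -0.39 to 0.38 for Mrc1. Both floxed sham libraries lay above both cKO sham libraries for Lyve1, Cd163 and C1qb, that is for 3 of 10 genes against 17.1% of all genes. All 10 differences were negative, while 54.3% of all genes tested had a positive one. Some of the 10 changed sign when libraries were left out.

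After TAC, 7 of the 10 transcripts were lower in cKO than in floxed hearts: the 3 C1q chains, Csf1r, Mrc1, F13a1 and Cd163. Floxed TAC means were 1.59 to 2.06 times the cKO TAC means for these 7. Cbr2, Folr2 and Lyve1 did not pass the test. Of all genes tested 24.9% were called, 16.5% as lower and 8.39% as higher in cKO, and the median log2 difference was -0.91 over the 10 genes and -0.10 over all genes. The floxed TAC libraries of this comparison are also those of the floxed TAC response, so the 2 results share samples.

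F13a1 differed most on the log2 scale, at -1.04 ± 0.17 (adjusted p = 0.00329), and Csf1r by -1.02 ± 0.15 (adjusted p = 0.00213). Mean F13a1 was 188 ± 12.7 CPM in floxed TAC and 91.3 ± 3.32 CPM in cKO TAC, and mean Csf1r was 191 ± 8.61 and 95.3 ± 21.2 CPM (SD, n = 2 each). Neither gene had overlapping groups. C1qb differed by -0.97 ± 0.14 (adjusted p = 0.00226), C1qa by -0.95 ± 0.16 (adjusted p = 0.00382) and C1qc by -0.88 ± 0.16 (adjusted p = 0.00510). Group means of the chains were 228 to 240 CPM in floxed TAC and 123 to 124 CPM in cKO TAC. Mrc1 differed by -0.97 ± 0.17 (adjusted p = 0.00470), with means of 118 ± 4.92 and 60.1 ± 5.52 CPM.

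Cd163 was at 34.8 ± 2.15 CPM in floxed TAC and at 21.9 ± 7.18 CPM in cKO TAC, a difference of -0.68 ± 0.21 (adjusted p = 0.0394). This call held in 7 of 17 alternatives. It was lost under median-ratio scaling (adjusted p = 0.0884), with edgeR (0.102), with DESeq2 (0.0889) and with the TAC libraries alone (0.0828). It was also lost without floxed sham 1 (adjusted p = 0.0653), floxed sham 2 (0.0647), floxed TAC 1 (0.115), floxed TAC 2 (0.182) or cKO TAC 2, where the difference was -0.35 (adjusted p = 0.165), and without the 3 libraries of high atrial transcripts (-0.35, adjusted p = 0.167). Cbr2 had means of 58.2 ± 10.2 and 44.9 ± 1.68 CPM, with a difference of -0.36 ± 0.15 (adjusted p = 0.109). Folr2 had means of 25.2 ± 2.57 and 19.5 ± 2.52 CPM, with a difference of -0.35 ± 0.24 (adjusted p = 0.316) and a 95% interval from -0.89 to 0.18. Lyve1 was at nearly equal means, 28.0 ± 7.39 CPM in floxed and 27.3 ± 10.4 CPM in cKO TAC, and its interval ran from -0.72 to 0.59 (adjusted p = 0.899). For 9 of the 10 genes, Lyve1 being the exception, both floxed TAC libraries lay above both cKO TAC libraries, against 40.2% of all genes tested.

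**Figure D2:**
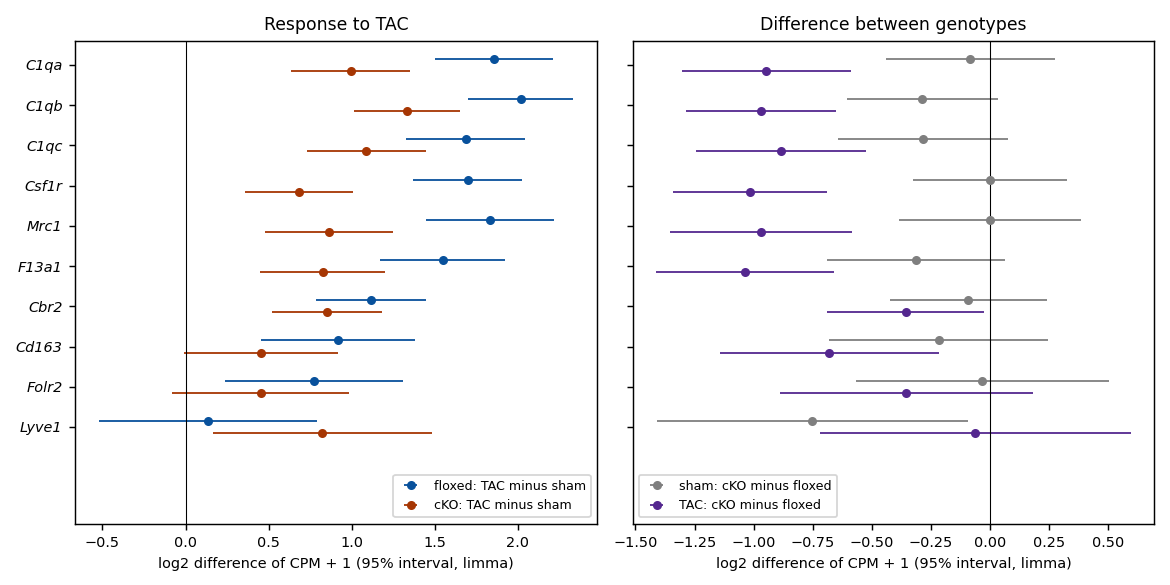
Log2 differences of CPM + 1 from limma with 95% intervals (x axis) for the 10 genes (y axis), TAC minus sham in each genotype on the left and cKO minus floxed in each surgery on the right. On the left the floxed value exceeds the cKO value for 9 genes and not for Lyve1, and on the right the differences are larger in TAC than in sham hearts for 9 genes and not for Lyve1.

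The difference between the TAC responses of the genotypes was tested directly as an interaction, the log2 response of cKO hearts less the floxed response. It was called for 3 of the 10 genes: Csf1r at -1.01 ± 0.21 (adjusted p = 0.0155), Mrc1 at -0.97 ± 0.24 (adjusted p = 0.0304) and C1qa at -0.86 ± 0.22 (adjusted p = 0.0341). Of all genes tested 14.1% were called, 9.18% with a lower and 4.93% with a higher response in cKO. C1qb (-0.68 ± 0.20, adjusted p = 0.0502), F13a1 (-0.72 ± 0.24, adjusted p = 0.0718) and C1qc (-0.60 ± 0.23, adjusted p = 0.105) did not pass. The smaller estimates were those of Cd163 (-0.46, adjusted p = 0.315), Folr2 (-0.32, adjusted p = 0.559) and Cbr2 (-0.27, adjusted p = 0.426). Lyve1 alone had a positive estimate, 0.69 ± 0.41 (adjusted p = 0.289).

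These calls rested on few libraries. None was called without floxed sham 1 or without floxed TAC 2, where the adjusted p of Csf1r was 0.0658 and 0.0570 and the share called over all genes was 1.94% and 5.60%. A single gene was called without floxed sham 2 (Mrc1, 4.63% of all genes) and without floxed TAC 1 (5.36%), cKO sham 1 (8.22%) or cKO TAC 1 (7.49%), where it was Csf1r. The number was 4 without cKO sham 2 (8.95% of all genes), 5 without cKO TAC 2 (22.2%) and 6 without the 3 libraries of high atrial transcripts (13.4%). The estimates for Csf1r stayed between -1.24 and -0.79 when a library was left out.

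Scaling moved the whole distribution in part. With median-ratio scaling in place of the library total, the median of all genes became 0.00 in the floxed response, -0.01 between genotypes in TAC and -0.02 in the interaction. The floxed rises were then 1.87 for C1qb, 1.71 for C1qa, 1.69 for Mrc1, 1.55 for Csf1r and 1.54 for C1qc. Lyve1 was at -0.01 there. In the interaction Csf1r was called at -0.89 (adjusted p = 0.0167), while Mrc1 (-0.84, adjusted p = 0.0508) and C1qa (-0.74, adjusted p = 0.0531) were not.

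Per length, the C1q transcripts were the most abundant of the 10 genes. In floxed sham, CPM per kb of exon was 62.2 for C1qa, 53.8 for C1qb and 36.4 for C1qc (means, n = 2). Cbr2 followed at 19.6, then Csf1r at 10.1, F13a1 at 9.53, Folr2 at 9.26 and Lyve1 at 8.64 CPM per kb. The last 4 had SDs of 0.139 to 1.82 CPM per kb and neighbours among them did not differ beyond that spread. Mrc1 at 5.14 and Cd163 at 3.29 CPM per kb were lowest. In floxed TAC the order was C1qa at 228, C1qb at 220, C1qc at 118, Cbr2 at 43.8, Csf1r at 33.1, F13a1 at 28.0, Mrc1 at 18.6, Folr2 at 16.3, Lyve1 at 9.59 and Cd163 at 6.37 CPM per kb. Mrc1 thus passed from below Folr2 and Lyve1 in sham to above Lyve1 in TAC. Its TAC mean of 18.6 CPM per kb (SD 0.772) was also above the 16.3 of Folr2 (SD 1.66), a difference that was not tested. In cKO TAC, where C1qa was at 119, C1qb at 113 and C1qc at 64.1 CPM per kb, Mrc1 (9.44), Lyve1 (9.34) and Folr2 (12.6) were close, with SDs of 0.867, 3.55 and 1.63 CPM per kb.

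Ratios within a library remove the library total from the comparison. The level of Lyve1 relative to Csf1r was 0.358 and 0.512 in floxed sham and 0.123 and 0.168 in floxed TAC. In cKO hearts it was 0.307 and 0.199 in sham and 0.431 and 0.181 in TAC. The ratio was thus lower in both floxed TAC libraries than in any other library, and the cKO TAC libraries differed widely. Cd163 relative to Csf1r was 0.310 and 0.306 in floxed sham, 0.180 and 0.184 in floxed TAC, 0.287 and 0.241 in cKO sham, and 0.336 and 0.153 in cKO TAC. The Cd163 ratio was thus lowest in cKO TAC 2. Folr2 relative to Csf1r was 0.241 and 0.25 in floxed sham and 0.126 and 0.137 in floxed TAC. In cKO hearts it was 0.326 and 0.176 in sham and 0.221 and 0.193 in TAC. Cbr2 relative to Csf1r was 0.448 and 0.446 in floxed sham and 0.275 and 0.331 in floxed TAC. In cKO hearts it was 0.453 and 0.387 in sham and 0.573 and 0.396 in TAC. By contrast C1qa relative to Csf1r was 1.06 and 1.17 in floxed sham and 1.27 and 1.21 in floxed TAC. Mrc1 relative to Csf1r was 0.478 and 0.651 in floxed sham and 0.620 and 0.617 in floxed TAC. For F13a1 the ratios were 0.938 and 1.27 in floxed sham and 0.968 and 1.00 in floxed TAC. Both genes thus had floxed TAC ratios between those of the 2 floxed sham libraries. No test was made of these ratios.

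**Figure D3:**
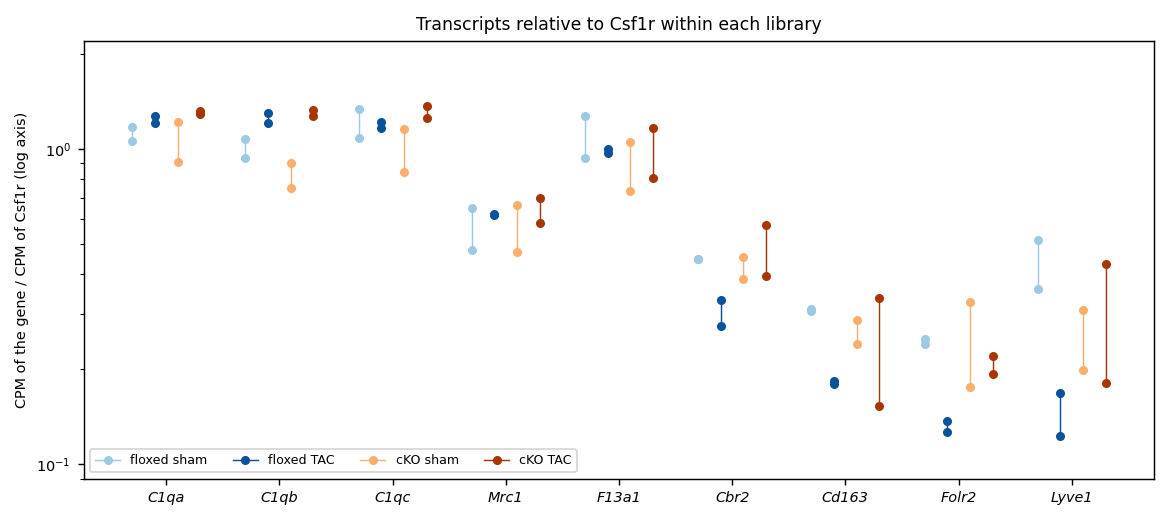
CPM of each gene divided by CPM of Csf1r in the same library (y axis, log scale) for the other 9 genes (x axis), with 1 point per library, colours for the 4 groups and a line joining the libraries of a group. In the floxed TAC libraries Lyve1, Folr2 and Cd163 lie at 0.123 to 0.184 and the C1q chains between 1.17 and 1.30. For Cd163 the lowest ratio is that of cKO TAC 2, at 0.153.

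The 3 C1q chains had similar levels within each library. C1qb relative to C1qa was 0.887 and 0.920 in floxed sham, 1.02 and 1.00 in floxed TAC, 0.742 and 0.826 in cKO sham, and 1.01 and 0.985 in cKO TAC. In all 4 TAC libraries the ratio was above that in all 4 sham libraries. Over the 8 libraries the log2 levels of the 3 chains correlated pairwise with Pearson r of 0.994 to 0.996, whereas Lyve1 correlated with the other 9 genes at 0.397 (Csf1r) to 0.696 (Cd163). The points share the group structure and the libraries, so these coefficients are descriptions only. Among 10285 other genes with a mean of at least 5 CPM, the profiles most like the mean of the C1q chains were those of Siglec1 (r = 0.994), a sialic acid receptor of macrophages, Pdlim5, Myo5a, Cdc20 and Laptm5 (r = 0.992). Among those most like the mean of Lyve1, Folr2, Cd163, Mrc1, F13a1 and Cbr2 were Cyb561 (r = 0.994), Pxdc1 (r = 0.993), Plekho1 (r = 0.979) and Ms4a6d (r = 0.977), over the same 8 libraries.

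Other genes of complement moved unevenly around C1q. The proteases that C1q activates did not pass the test in floxed hearts, C1ra at 0.15 ± 0.19 (adjusted p = 0.543) and C1s at 0.19 ± 0.15 (adjusted p = 0.340), nor did the C1 inhibitor Serping1 (0.26 ± 0.18, adjusted p = 0.280). C1ra was at 23.6 and 22.9 CPM in floxed sham and at 21.2 and 31.6 CPM in floxed TAC, so the groups overlapped. Of 12 components tested besides C1q, with C1ra and C1s among them, 7 rose, 1 fell and 4 did not pass in floxed hearts. Their median was 0.97 there, and 1 rose in cKO hearts. Of all genes tested, 27.9% were called higher and 14.5% lower in floxed hearts, and 2.09% higher in cKO hearts. Cfp, the positive regulator properdin, rose by 2.14 ± 0.24 in floxed hearts (adjusted p = 0.000141) and Cfb, of the alternative pathway, by 1.58 ± 0.30 (adjusted p = 0.00239). C4b rose in both genotypes, by 2.23 ± 0.29 and 1.74 ± 0.29, but shares near-identical sequence with C4a, so its reads are uncertain. C3 did not pass in either genotype (0.54 in floxed, adjusted p = 0.182, and 1.17 in cKO, adjusted p = 0.0842). Markers of fibroblasts, cells that also make C1r, C1s and C3, were listed for 7 of 7 genes. They summed to 1330 and 1414 CPM in floxed sham and to 7829 and 10596 CPM in floxed TAC. Most of the TAC sum was collagen, with Col1a1 at 3413 and 4100 CPM and Col3a1 at 3445 and 5183 CPM. Dcn was at 637 and 610 CPM in floxed sham and at 598 and 866 CPM in floxed TAC. Of the 7, 5 rose and 2 did not pass, against 27.9% of all genes called higher. The part of fibroblasts in the complement values was not tested.

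Of 9 regulators of complement tested in floxed hearts, 2 were higher, 2 lower and 5 not passed, a share called near the 42.4% of all genes. Clu (clusterin) rose by 2.96 ± 0.32 (adjusted p = 0.000115). Cfi, the protease that cleaves C3b and C4b, had no read in either floxed sham library and was at 3.66 and 3.44 CPM in floxed TAC. Its fitted difference depends on the pseudocount and is not given, though its call is among the 2 higher. Cd59a, which blocks the membrane attack complex, fell by 0.67 on the log2 scale (adjusted p = 0.00381), and Vtn (vitronectin) fell by 1.20 (adjusted p = 0.00487). Receptors for complement fragments or C1q rose for 11 of 12 in floxed hearts, with a median of 2.22, against 27.9% of all genes. In cKO hearts 3 of 12 rose, with a median of 0.95, against 2.09% of all genes. Itgam, the alpha chain of complement receptor CR3, rose by 2.88 ± 0.23 in floxed (adjusted p = 3.00e-05) and by 1.17 ± 0.23 in cKO hearts (adjusted p = 0.0355). C5ar1, a receptor for C5a, rose by 2.23 ± 0.18 and 1.13 ± 0.18 (adjusted p = 3.02e-05 and 0.0147). Calr, the C1q-binding chaperone, rose by 0.88 ± 0.16 in floxed hearts and was at -0.41 ± 0.16 in cKO hearts (adjusted p = 0.223), with an interaction of -1.29 ± 0.22 (adjusted p = 0.00938). Cd93, once described as a C1q receptor, did not pass (0.74 ± 0.31, adjusted p = 0.0822).

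**Figure D4:**
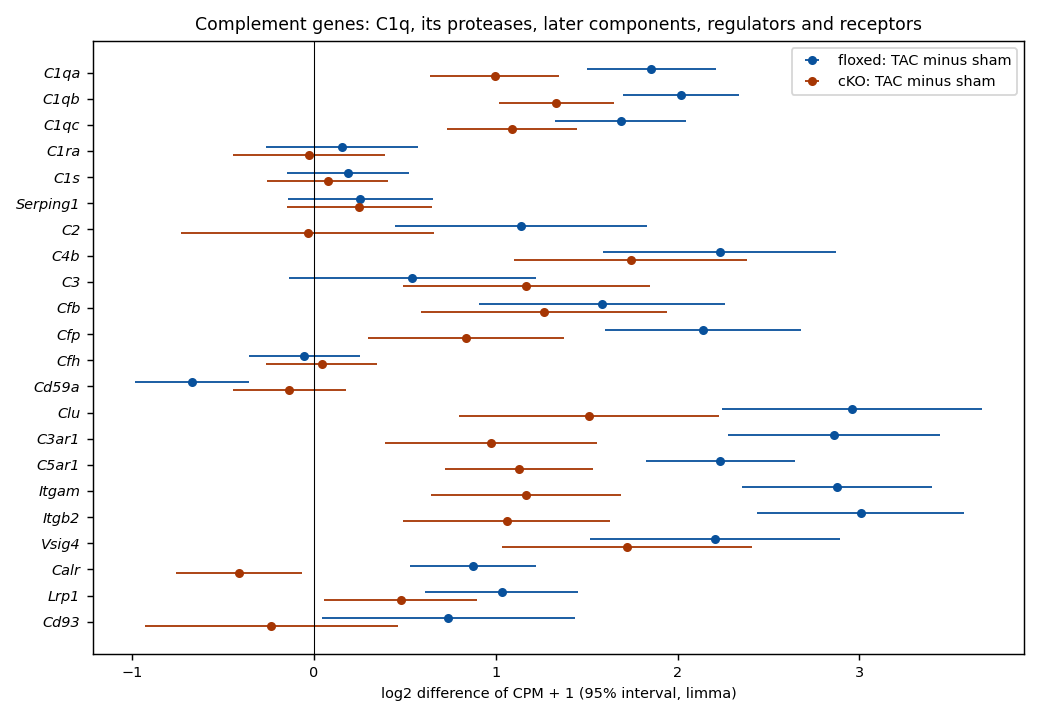
Log2 differences of CPM + 1, TAC minus sham, with 95% limma intervals (x axis) for the C1q chains and other complement genes (y axis), in floxed and cKO hearts. The C1q chains lie at 1.69 to 2.02 in floxed hearts, C1ra and C1s at 0.15 and 0.19, and Cd59a below 0.

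Of the ligands of the CSF1 receptor, Il34 rose in floxed hearts and Csf1 did not pass the test. Csf1 was at 99.7 and 88.3 CPM in floxed sham and at 67.9 and 87.5 CPM in floxed TAC (-0.28 ± 0.20, adjusted p = 0.295), and both floxed TAC libraries lay below both sham libraries. Il34 rose by 0.94 ± 0.28 in floxed hearts (adjusted p = 0.0231), from 3.96 and 4.38 CPM to 6.17 and 12.7 CPM, and was at 0.20 ± 0.28 in cKO hearts (adjusted p = 0.795). Of the 13 ligands, partners and macrophage transcription factors tested, 10 rose in floxed and 2 in cKO hearts, with medians of 1.47 and 0.65. The shares of all genes called higher were 27.9% and 2.09%. Tyrobp, an adaptor of myeloid receptors, rose by 2.58 ± 0.19 in floxed (adjusted p = 2.20e-05) and 0.88 ± 0.19 in cKO hearts (adjusted p = 0.0493). Runx1 rose by 3.58 ± 0.42 in floxed hearts (adjusted p = 0.000168).

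Genes for the ligands and handling of what the receptors take up were compared as well. Their counts are read against the 27.9% of all genes called higher and 14.5% called lower in floxed hearts. For Lyve1, 5 of 7 genes of hyaluronan synthesis, breakdown and binding rose in floxed hearts, with medians of 0.96 in floxed and 0.15 in cKO hearts. Cd44, another hyaluronan receptor, rose by 2.69 ± 0.29 in floxed hearts (adjusted p = 0.000107), from 9.15 and 12.0 CPM to 73.0 and 73.5 CPM, while Lyve1 did not pass. For Cd163, 5 of 9 genes of haemoglobin and iron handling rose and 1 fell in floxed hearts. Hmox1, which breaks down haem, went from 13.4 and 13.3 CPM to 149 and 175 CPM, a rise of 3.50 ± 0.16 (adjusted p = 3.71e-06), and in cKO hearts from 16.5 and 15.3 CPM to 27.0 and 36.4 CPM (0.94 ± 0.16, adjusted p = 0.0199). Hmox1 thus changed far more than Cd163 did in the same libraries, and its interaction was -2.56 ± 0.23 (adjusted p = 0.00144).

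Around Folr2, 4 of 7 genes of folate uptake and use rose in floxed hearts, against 27.9% of all genes. Medians were 0.86 in floxed and 0.11 in cKO hearts. Folr1, the related receptor, had no read in either floxed sham library and was at 1.28 and 1.02 CPM in floxed TAC. Its fitted difference depends on the pseudocount and is not given, though its call is among the 4. Around F13a1, 4 of 5 genes of fibrinolysis and transglutamination rose in floxed hearts (27.9% of all genes) and 1 in cKO hearts (2.09%). That gene was Tgm2, tissue transglutaminase, which rose by 1.95 ± 0.12 and 0.73 ± 0.12 (adjusted p = 1.28e-05 and 0.0157), with an interaction of -1.22 ± 0.17 (adjusted p = 0.00502).

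Other macrophage lists place the 10 genes. Their counts are read against the 27.9% of all genes called higher and 14.5% called lower in floxed hearts. In cKO hearts 2.09% were called higher. Of 15 further genes used for resident macrophages, 7 rose, 2 fell and 6 did not pass in floxed hearts, with a median of 0.60. Igf1, a growth factor, rose by 2.08 ± 0.20 (adjusted p = 7.00e-05) and Stab1, a scavenger receptor, by 1.76 ± 0.18 (adjusted p = 7.70e-05). The 2 that fell were Mgl2, from 13 and 12.1 CPM to 8.78 and 5.11 CPM, and Retnla, from 5.00 and 3.42 CPM to 0.549 and 0.0465 CPM, named after their values were seen. All 17 pan-macrophage genes tested rose in floxed hearts, with a median of 2.70, and 7 of 17 in cKO hearts, with a median of 1.20. Cd68 rose by 2.74 ± 0.20 and Lyz2, lysozyme, by 3.22 ± 0.26 in floxed hearts. Of 11 genes of recruited monocytes and activated macrophages, 10 rose in floxed and 5 in cKO hearts, with medians of 3.25 and 1.27. Ccr2 rose by 4.28 ± 0.28 in floxed (adjusted p = 1.66e-05) and 1.53 ± 0.28 in cKO hearts (adjusted p = 0.0274). The 10 genes had a median of 1.62 in the same floxed libraries. The lists were not tested against each other.

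**Figure D5:**
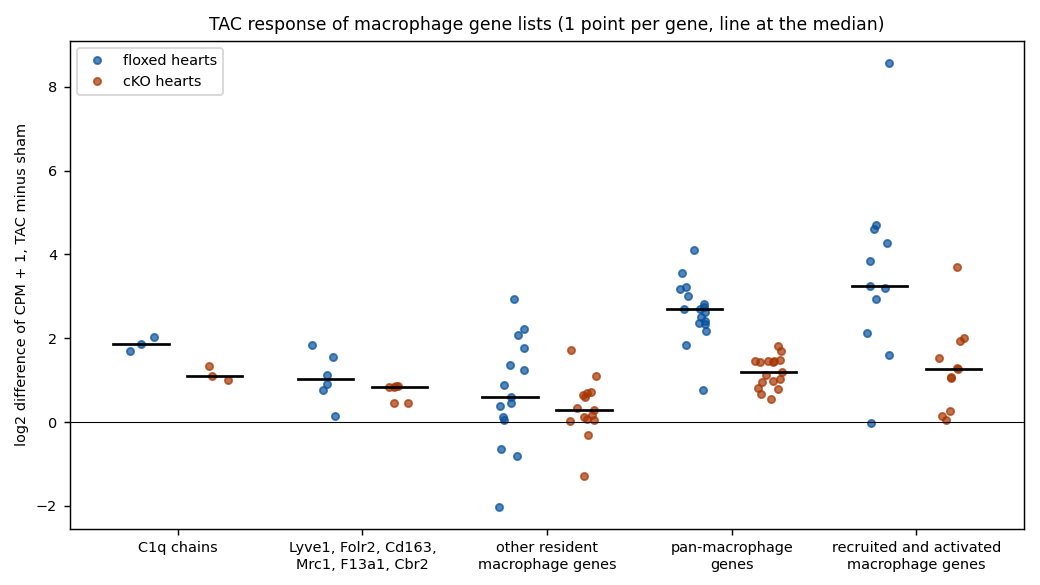
Log2 differences of CPM + 1, TAC minus sham, of the genes of each macrophage list, with points for genes, a line at the list median and colours for genotype; the x axis gives the list. In floxed hearts the medians are 1.86 for the C1q chains, 1.02 for Lyve1, Folr2, Cd163, Mrc1, F13a1 and Cbr2, 0.60 for the further resident genes, 2.70 for the pan-macrophage list and 3.25 for the recruited list.

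Between genotypes in TAC, 15 of the 17 pan-macrophage genes, 9 of the 11 recruited and activated genes, 9 of the 12 receptors and 5 of the 15 further resident genes were lower in cKO hearts, and none was higher. Ccr2, at -2.57 ± 0.28 (adjusted p = 0.000968), had a larger difference than any of the 10 genes. These counts are read against the 16.5% of all genes called lower. In the interaction 10 of 17, 9 of 11, 7 of 12 and 3 of 15 were called lower, against 9.18% of all genes tested. Neutrophil markers were listed for 4 of 7 genes and summed to 19.7 to 31.5 CPM over the libraries. Most of that sum was Cxcr2, at 18.7 to 23.9 CPM. Of the 4, 3 rose in floxed hearts and 0 in cKO hearts, against 27.9% and 2.09% of all genes. Csf3r went from 0.843 and 0.960 CPM in floxed sham to 6.40 and 6.27 CPM in floxed TAC. Lymphocyte markers were listed for 1 of 8 genes, Cd79a, at 1.04 CPM or less. The part of other cell types in the levels of the 10 genes was not tested.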

How the data were processed

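RNA of left ventricles was profiled in 8 libraries, 2 in each of 4 groups. The authors deposited CPM, reads of a gene scaled to a common library total, for 13439 genes. Bowtie2 2.2.6, HTSeq, DESeq2 and mm10 are named in the submitters' processing notes, while no source used here gives their roles, the annotation or the counting settings. Reads were recovered from the CPM, since 100% of values came within 0.02 reads of a whole number. Library totals of 10315902 to 21871570 reads put 3 reads at 0.137 to 0.291 CPM, which covers counting error only. Replicates differed beyond sampling noise (chi-square per degree of freedom 11.45 to 39.63).

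Log2(CPM + 1) of all 8 libraries was fitted with limma 3.58.1 (trended variance, 1 coefficient per group) in R 4.3.3. A filter of 1 CPM or more in 2 or more libraries kept 13120 genes and removed 319, with Benjamini-Hochberg adjustment over all of them and a threshold of 0.05. Log2 differences are followed by standard errors and CPM means by SDs. The scripts were tested on simulated data.

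The members and the lists of genes and markers were chosen with earlier results of these data known. All 10 members are named in each comparison. From each of 14 lists, the genes in direct relation to a member and up to 4 with the smallest adjusted p in floxed hearts are named, and for likeness the 5 genes with the highest correlation. Some genes that this rule names are not reported here. Alternatives were another pseudocount (0.25 CPM), no filter or 5 CPM, median-ratio (RLE) scaling, edgeR 4.0.16 and DESeq2 1.42.0 on recovered reads, the compared libraries alone, a replicate block, and libraries left out. Exons, lengths and coordinates come from GENCODE M21 and promoters from RefSeq GRCm38.p6.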

Additional observations from a re-analysis of the deposited data

Results flagged for a closer look

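The TAC response differed between genotypes by the test of the interaction for 3 of the 10 genes. Of all genes tested 14.1% were called, 9.18% with a lower response in cKO. On the log2 scale the cKO response minus the floxed response was -1.01 for Csf1r, -0.97 for Mrc1 and -0.86 for C1qa. Csf1r had the smallest adjusted p of the 10 in limma, 0.0155, and Mrc1 and C1qa had 0.0304 and 0.0341. The negative sign held for these 3 genes under all 16 alternatives tried, and the calls did not.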

How the results depend on the processing

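With 2 libraries a group, 1 library can carry a call, and low adjusted p-values rest on a spread pooled over all groups. In floxed hearts 9 of the 10 genes were called, against 42.4% of all genes, and between genotypes in TAC 7, against 24.9%. These numbers moved by at most 1 under alternatives that kept 2 libraries in each group compared, and none was called in sham there. The share over all genes in floxed hearts was then 40.3% (DESeq2) to 48.4% (compared libraries alone). In both comparisons that share fell further with some libraries left out. In cKO hearts the 7 called became 1 with the compared libraries alone, 0 without the 3 libraries of high atrial transcripts, and 1 to 6 with a library left out, while the share called over all genes went from 2.53% to 0.343%, 0.404% and 0.541% to 4.69%. In the interaction the 3 called became 1 under RLE scaling, 6 without the 3 libraries, and 0 to 5 with a library left out, and the share over all genes went from 14.1% to 13.4%, 13.4% and 1.94% to 22.2%. These fits hold fewer libraries (RLE apart), a lone library is assumed to vary like the other groups, and the cause was not tested.

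Signs changed for few estimates. Lyve1 in floxed hearts was -0.00669 under RLE scaling and -0.13 to 0.40 with a library left out. Lyve1 between genotypes in TAC was 0.0340 under RLE scaling, 0.0681 with edgeR, 0.0746 with DESeq2, 0.32 without the 3 libraries, and -0.45 to 0.32 with a library left out. Folr2 in cKO hearts was -0.0639 without the 3 libraries, and its interaction was -0.71 to 0.0693 with a library left out. In sham, without the 3 libraries, differences were 0.34 for Folr2, 0.39 for Mrc1, 0.0894 for F13a1, 0.13 for C1qa and 0.0213 for C1qc. With a library left out they were -0.42 to 0.36 for Folr2, -0.22 to 0.22 for Mrc1, -0.0427 to 0.0389 for Csf1r and -0.26 to 0.10 for C1qa. The cause was not tested.

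Deviations of same-numbered libraries correlated at -0.11 to 0.08 over 6 pairs of groups. That value over all genes cannot show whether libraries were paired or handled together by replicate number. The 3 libraries of high atrial transcripts all had replicate number 2, and floxed TAC 2 was not among them. With the number as a replicate block, 9, 7, 0, 7 and 3 genes were called in the 5 comparisons, as without it.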
